A study of Mus musculus with 6 samples.

Results

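The nuclear-encoded subunit genes of the mitochondrial respiratory chain and of the ATP synthase were described in sorted mouse mammary epithelial cells with and without Glis2. Members were gene identifiers of the deposited count table whose symbol begins with Ndufa, Ndufb, Ndufc, Ndufs, Ndufv, Sdha, Sdhb, Sdhc, Sdhd, Uqcr, Cox4, Cox5, Cox6, Cox7, Cox8 or Atp5, that are protein-coding and that hold 10 or more counts in at least 3 libraries. Of 54418 gene identifiers, 111 begin with one of these prefixes and 81 are members. The 30 others were 12 assembly factors, 9 pseudogene symbols, 4 genes that are not protein-coding and 5 with too few counts, among them Cox6a2, Cox8b and Cox8c. By symbol, complex I gave 38 members, among them Ndufa4, whose protein is known to belong to complex IV, complex II 4, complex III 8, complex IV 14 and complex V, the ATP synthase, 17. The rule used the counts only to drop genes that were barely read, and all 81 members were tested.

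The respiratory chain sits in the inner mitochondrial membrane. Complex I (NADH dehydrogenase) and complex II (succinate dehydrogenase) pass electrons to ubiquinone, complex III hands them to cytochrome c, and complex IV (cytochrome c oxidase) reduces oxygen, while the proton gradient so built drives the ATP synthase. All complexes except complex II combine subunits encoded in the nucleus with a few encoded in mitochondrial DNA, and nuclear factors such as NRF1, GABPA and YY1 are known to bind promoters of the nuclear genes. Several subunits exist as paralogs of which one is made in most tissues and another mainly in heart, muscle, testis or under low oxygen.

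The libraries came from 4-week-old female mice of the strain C57BL/6, 3 with an intact Glis2 gene (Glis2+/+, labelled WT) and 3 with germline loss of both copies (Glis2-/-, labelled KO), 1 library per mouse. Glis2 encodes a zinc finger transcription factor that the study placed downstream of the primary cilium, and the comparison asked how its loss changes gene expression in the developing gland. Cells were dissociated and sorted with antibodies to TER-119, CD31, CD45, CD24 and CD49f, and basal and luminal cells were both in the libraries, since markers of both were read in all 6. The loss is carried by every cell of the animal, so an effect within the epithelium and an effect from other tissues cannot be told apart, and in bulk libraries fewer cells of a type and less RNA per cell cannot be told apart either.

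Total counts lay between 24996524 and 31393917 per library. Glis2 itself had 671, 663 and 510 counts in WT replicates 1 to 3 and 252, 509 and 510 in KO replicates 1 to 3. In CPM, counts scaled by the TMM-normalized library size, that was 21.7, 23.2 and 19.6 against 10.1, 16.99 and 16.3, lower in the 3 KO libraries but not absent, with a log2 fold change of -0.57 (SE 0.22) that did not pass the test (adjusted p = 0.906 in edgeR's quasi-likelihood test). On the rescaled TPM used for levels below it was 29.7, 38.4 and 18.4 in WT and 30.6, 30.2 and 30.6 in KO, so on that scale KO was not lower and lay within the range of WT. Gene counts do not show which part of the transcript was read. WT and KO name the libraries as labelled. The members together took 0.402 to 0.455% of the counts of a library.

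Short stretches before the transcription start sites of 7 members are printed here: the 3 with an unadjusted p under 0.05 between the genotypes (Ndufc1, Uqcrh and Cox7a2l), Uqcr11, a complex III member whose genotypes did not overlap in the opposite direction to Uqcrh, the 2 paralogs Cox7a2 and Cox7a1, of which the first is read in every library and the second hardly at all, and Cox6a1, whose stretch holds the most motif matches of the 7. They are RefSeq sequences of GRCm38.p6, written 5′ to 3′ on the gene's strand, without bases that GENCODE vM21 places in an exon, and capitals mark matches to the letters of 4 factor motifs on either strand.
Ndufc1 (chr3:51408989-51409188, minus strand): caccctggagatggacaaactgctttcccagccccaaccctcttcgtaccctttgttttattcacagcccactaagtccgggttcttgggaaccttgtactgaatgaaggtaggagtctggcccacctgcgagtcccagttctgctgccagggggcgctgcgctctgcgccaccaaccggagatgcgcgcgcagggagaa
Uqcrh (chr4:116075072-116075268, minus strand): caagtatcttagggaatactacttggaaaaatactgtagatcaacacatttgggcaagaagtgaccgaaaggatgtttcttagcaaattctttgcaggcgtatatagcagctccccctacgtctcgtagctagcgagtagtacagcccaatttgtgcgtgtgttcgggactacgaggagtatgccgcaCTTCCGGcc
Uqcr11 (chr10:80406831-80407030, minus strand): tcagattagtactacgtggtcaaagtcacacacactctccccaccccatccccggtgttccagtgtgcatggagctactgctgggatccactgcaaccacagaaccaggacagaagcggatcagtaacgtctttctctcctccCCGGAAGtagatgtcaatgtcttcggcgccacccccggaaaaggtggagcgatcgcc
Cox6a1 (chr5:115348982-115349129, minus strand): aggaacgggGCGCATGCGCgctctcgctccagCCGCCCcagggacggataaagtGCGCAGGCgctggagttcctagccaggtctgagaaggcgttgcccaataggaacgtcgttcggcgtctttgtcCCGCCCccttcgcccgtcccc
Cox7a2l (chr17:83514334-83514533, minus strand): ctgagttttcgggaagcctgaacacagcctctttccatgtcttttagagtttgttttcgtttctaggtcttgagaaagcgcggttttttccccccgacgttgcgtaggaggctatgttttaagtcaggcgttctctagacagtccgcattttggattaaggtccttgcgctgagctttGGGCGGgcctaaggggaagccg
Cox7a2 (chr9:79759879-79760078, minus strand): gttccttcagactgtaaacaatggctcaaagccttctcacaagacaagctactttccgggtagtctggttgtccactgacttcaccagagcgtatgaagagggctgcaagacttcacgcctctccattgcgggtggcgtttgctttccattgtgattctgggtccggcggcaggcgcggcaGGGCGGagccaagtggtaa
Cox7a1 (chr7:30183944-30184143, plus strand): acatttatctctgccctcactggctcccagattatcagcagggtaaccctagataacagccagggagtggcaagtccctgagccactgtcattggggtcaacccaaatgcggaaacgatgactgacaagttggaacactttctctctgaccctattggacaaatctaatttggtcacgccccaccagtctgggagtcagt

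The capitals in Uqcrh and Uqcr11 are a match to GABPA, those in Cox7a2l and Cox7a2 a match to SP1, and those in Cox6a1 are 3 matches to NRF1, 2 of them overlapping on opposite strands, and 2 matches to SP1. The stretches of Ndufc1 and Cox7a1 hold none. The Cox7a2l stretch ends at a RefSeq start that lies 2997 bases inside the gene as GENCODE draws it, and the other starts lie 1 to 33 bases from the GENCODE start.

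RefSeq gave a window of 300 bases (250 before the start and 50 after) for 65 of the 81 members and for 16459 protein-coding genes in all. The NRF1 letters GCGCANGC stood in 22 member windows (33.8%) and in 14.0% of all windows. The GABPA letters CCGGAAG stood in 15 (23.1%, against 12.4%) and the YY1 letters AAGATGGC in 8 (12.3%, against 3.28%). NRF1 and GABPA letters occurred together in 7 member windows (10.8%, against 2.59%). The SP1 letters GGGCGG stood in 26 (40.0%, against 48.4%) and the TATA box letters TATAAA in 5 (7.69%, against 12.9%). At least 1 of the 4 factor motifs stood in 49 member windows (75.4%, against 56.8%). The median number of CpG in a window was 19 against 14. These are matches of letters in a window and were not tested.

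Levels were compared between genes on a per-length scale, as TPM rescaled so that the protein-coding genes sum to the same total in every library. The members together held 1.43 to 1.59% of that sum. Complex V took the largest share of the members' sum (30.7 to 33.04%), followed closely by complex I (30.1 to 31.1%), then complex IV (19.9 to 20.9%), complex III (12.9 to 13.9%) and complex II (2.87 to 3.70%). The order of the complexes was the same in all 6 libraries except that the shares of complexes I and V crossed in KO replicate 2, where complex I took 30.9% and complex V 30.7%.

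The highest rescaled TPM values belonged to small subunits and to the catalytic core of the ATP synthase. Cox6c, a small complex IV subunit, averaged 793 ± 65.5 (SD over 6 libraries), Atp5mpl, a small membrane subunit of the ATP synthase, 703 ± 84.01, and Atp5b, its catalytic beta subunit, 687 ± 73.8. Within complex III the highest was Uqcrq (440.4 ± 45.3) and the lowest Uqcrfs1, the Rieske iron-sulphur protein (98.4 ± 6.64). Within complex II the flavoprotein Sdha stood at 255 ± 30.9, above Sdhb (108 ± 6.03), and the membrane anchors Sdhd (69.4 ± 11.3) and Sdhc (63.1 ± 12.8) did not differ beyond their spread. Complex I had a median of 115 over its 38 members, from 14.0 for Ndufa4l2 to 246 ± 25.02 for Ndufs4, an accessory subunit of the matrix arm.

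The 5 members with the lowest levels, at under 15 rescaled TPM, were Cox4i2 (5.50), Cox7a1 (8.62), Cox6b2 (8.91), Atp5s (9.49) and Ndufa4l2 (14.0). Of these, 4 are the second paralog of a pair whose other member is read in most tissues, and Atp5s encodes a coupling factor of the ATP synthase. The next lowest member, Ndufb4, averaged 30.8.

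**Figure D1:**
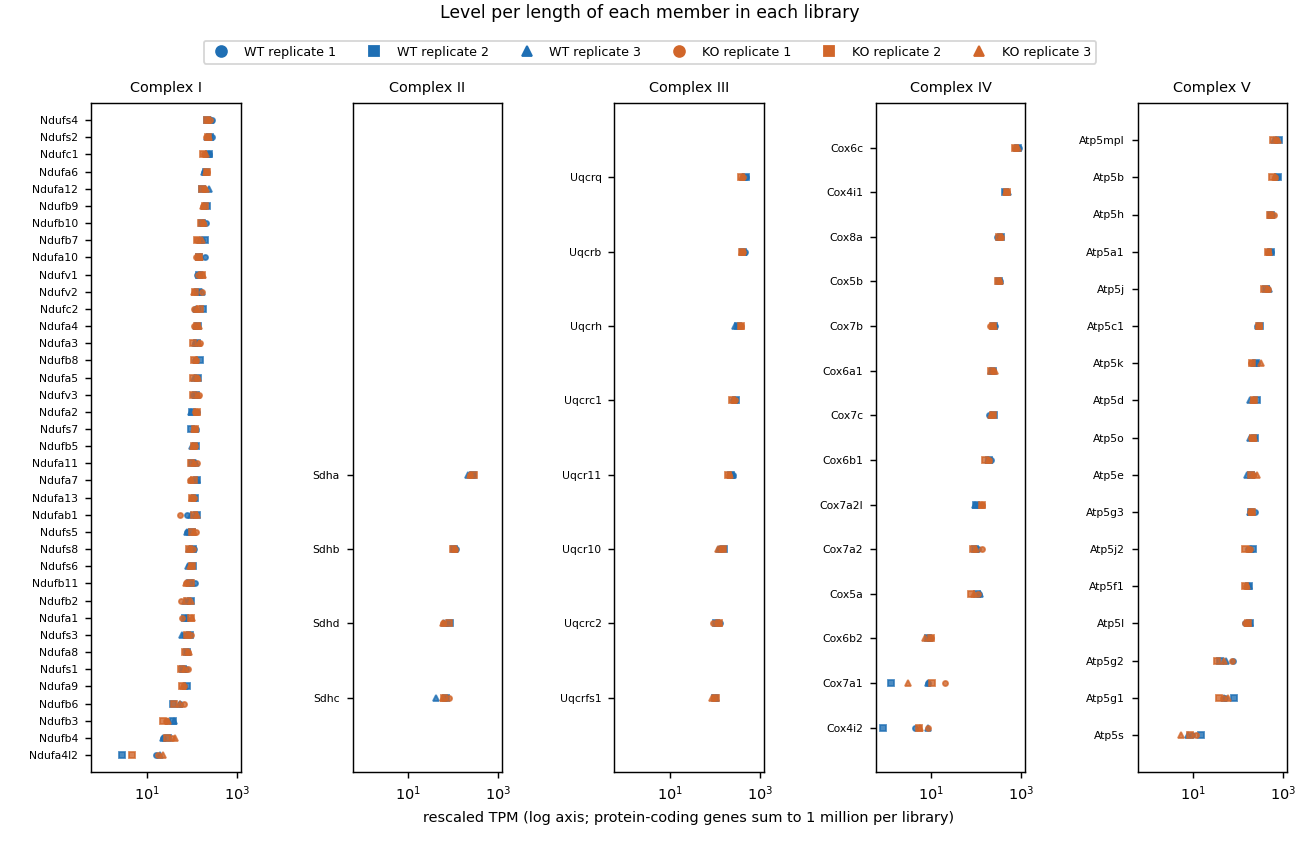
Rescaled TPM (log axis) of each of the 81 members in the 6 libraries, by complex, WT in blue and KO in orange, with 1 symbol per library. Most members lie between 30.8 and 793 with the libraries close together, and Cox4i2, Cox7a1 and Ndufa4l2 spread widely, with WT replicate 2 the lowest point of each.

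No member differed between the genotypes by the thresholds of the study (0.05 for the adjusted p and 0.58 either way for the log2 fold change). In edgeR, 0 of 21236 genes tested were called (0%), and 0 of 81 members. The smallest adjusted p of a member was 0.906 in edgeR and 0.421 in DESeq2, which called 48 genes of all kinds (0.178%) and 0 members. At an unadjusted p under 0.05 there were 3 members, 2 higher and 1 lower in KO, where 5.32% of all genes passed (2.99% higher and 2.33% lower). The KO and WT libraries did not overlap for 12 members, 5 higher and 7 lower in KO, beside 11.7% of all genes (6.23% higher and 5.5% lower).

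The log2 fold changes of the members were small. They ran from -0.41 to 0.77 with a median of -0.03, 33 above 0 and 48 below, beside a median of 0.01 over all genes tested, of which 51.6% lay above 0. For 62 of 81 members the absolute log2 fold change was under 0.2 (47.8% of all genes), and for 1 member, Cox7a1, it reached 0.58 (19.8% of all genes). The Cox7a1 value of 0.77 rests on single libraries, with 0.06 without KO replicate 1, 0.33 without WT replicate 2 and 1.21 without KO replicate 3. The 95% interval lay within 0.58 either way for 60 members, beside 29.4% of all genes, and within 1 either way for 77. Thus a 1.5-fold difference lay outside the interval of those 60, which are 26 of complex I, all 4 of complex II, all 8 of complex III, 9 of complex IV and 13 of complex V.

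The median biological coefficient of variation of the members, edgeR's estimate of the spread between libraries beyond counting error, was 15.1%, against 29.8% over all genes tested and 22.4% over protein-coding genes. It was 13.2% for the TCA cycle, 14.2% for mobile carriers, 14.4% for glycolysis, 15.0% for the nuclear regulators and 25.5% for the assembly factors. The value was below the all-gene median for 76 members. Of the members, 76 had at least 100 counts in every library.

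**Figure D2:**
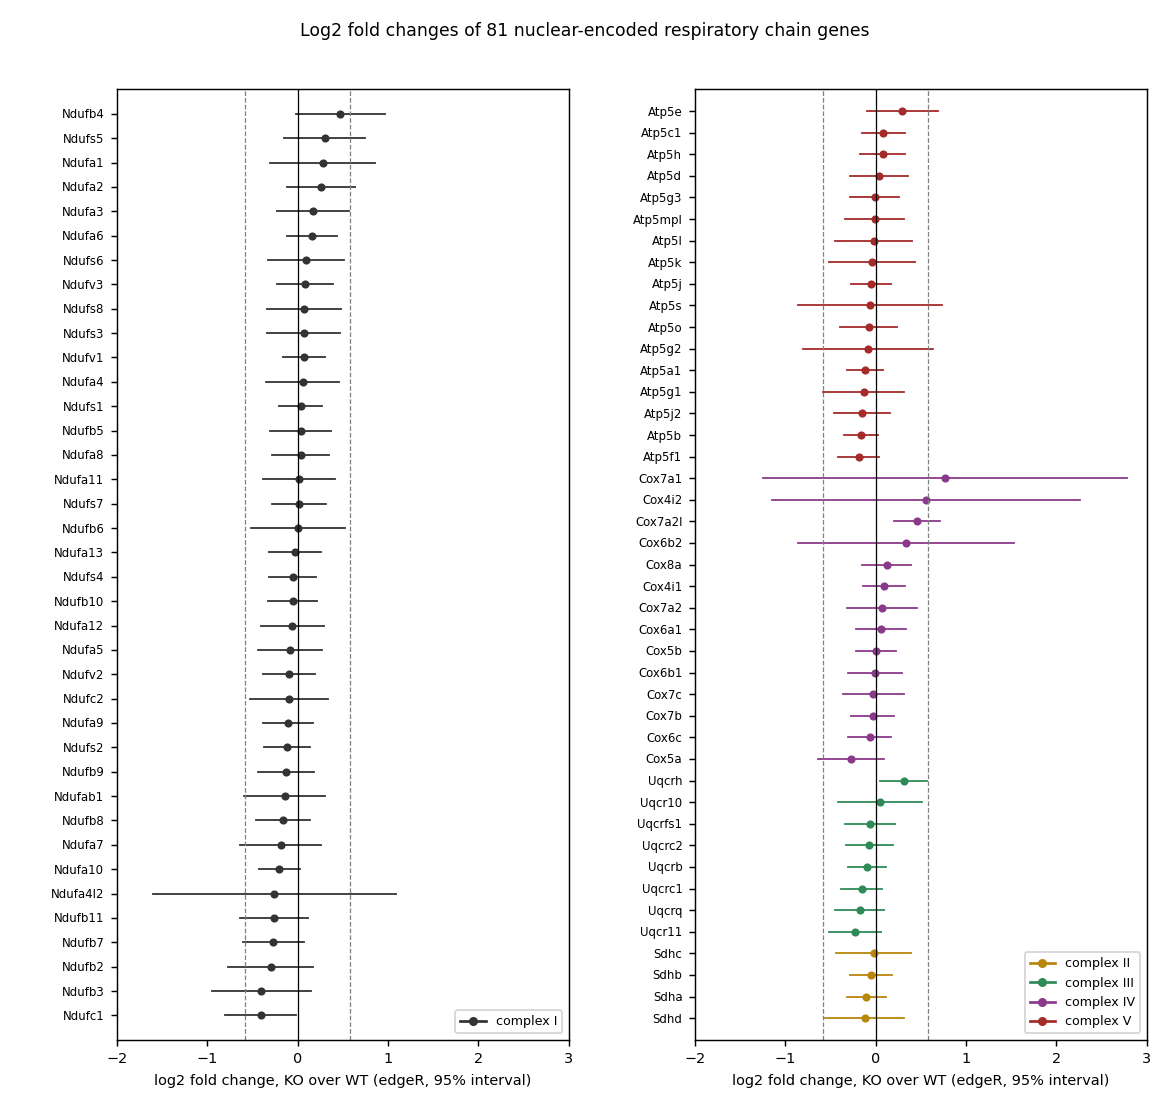
Log2 fold change, KO over WT, of each member with its 95% interval from edgeR, complex I on the left and complexes II to V on the right. Dashed lines mark 0.58 either way. Of the 81 intervals 78 hold 0, and the widest belong to Cox7a1, Cox4i2, Ndufa4l2 and Cox6b2.

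By library, the medians of the members lay close together. The median over members of log2 CPM minus each gene's mean over the 6 libraries was -0.04, 0.08 and 0.01 in WT replicates 1 to 3 and -0.01, -0.02 and -0.01 in KO replicates 1 to 3, a range of 0.11. The genotypes overlap on this measure. The same range was 0.12 for 20 nuclear regulators of the chain, 0.13 for 48 assembly factors, 0.18 for 18 genes of the TCA cycle, 0.44 for the 12 mitochondrially encoded subunits, 1.52 for fibroblast markers and 0.023 for all genes tested, so a small range was not particular to the members. The summed normalized CPM of the members was 4282, 4557 and 4168 in WT and 4154, 4182 and 4216 in KO. Without TMM normalization the same sums were 4362, 4548 and 4232 against 4158, 4022 and 4203, so the genotypes overlapped with the scaling and not without it.

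**Figure D3:**
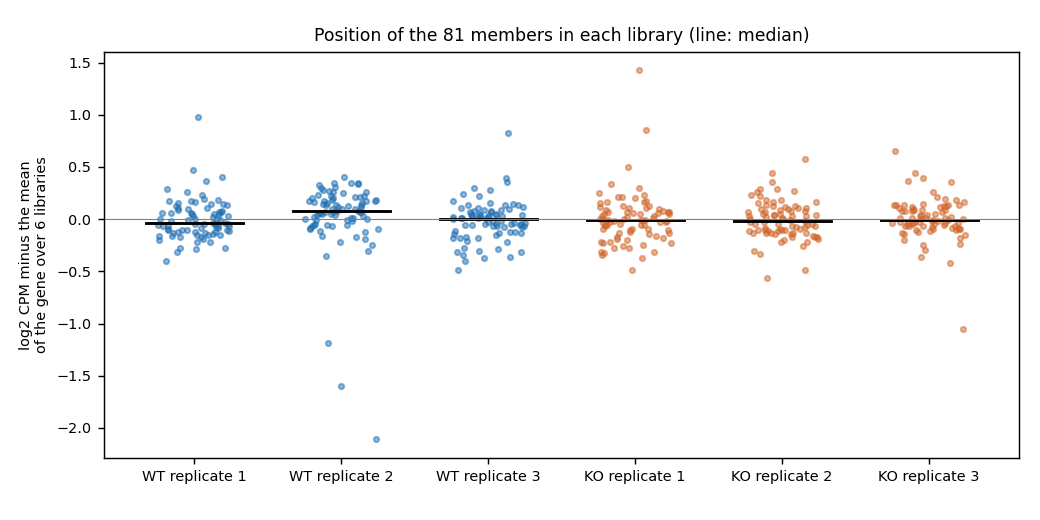
Log2 CPM of each of the 81 members minus its mean over the 6 libraries, 1 column of points per library, with the median as a black line. The medians lie between -0.04 and 0.08, and single low points in WT replicate 2 and KO replicate 3 belong to members with few counts.

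Cox7a2l had the smallest p of the members. It encodes a protein related to the Cox7a subunits that joins complexes III and IV into supercomplexes, and the strain C57BL/6 is known to carry a shortened form of it. The gene (ENSMUSG00000024248) lies at chr17:83501918-83517330 on the minus strand. Its normalized CPM was 43.1, 40.3 and 36.96 in WT and 54.1, 57.3 and 53.5 in KO. The 3 KO libraries lay above the 3 WT libraries, with means of 54.97 ± 2.03 and 40.1 ± 3.06 (SD, n = 3 each). The log2 fold change was 0.45 (SE 0.11, 95% interval 0.20 to 0.71), with an unadjusted p of 0.00321 and an adjusted p of 0.906 in edgeR, so it did not pass the test. Over the alternatives its adjusted p lay between 0.421 and 1.00. Leaving out each library in turn gave a log2 fold change of 0.40 to 0.49, while it was 0.26 on log2(TPM + 1) in limma (unadjusted p = 0.0668) and 0.28 with the shrinkage of apeglm.

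No other complex IV member had an unadjusted p under 0.05. Cox4i1, the common form of the subunit that binds ATP, had 101, 108 and 118 CPM in WT and 116, 122 and 110.5 in KO, with a log2 fold change of 0.09 (SE 0.10). Cox5a was 23.7, 23.8 and 27.4 against 23.8, 18.4 and 19.9, a log2 fold change of -0.27 (SE 0.16), with overlapping genotypes. Cox6c, the member with the highest level, was 127, 129.8 and 116 against 110.4, 116 and 129.8 (-0.07, SE 0.10), and -0.15 to -0.02 with each library left out in turn. The median of the 14 was 0.07, with 9 above 0 and 5 below.

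In complex III, Uqcrh, the acidic hinge protein that sits by cytochrome c1, had 52.99, 54.3 and 45.4 CPM in WT and 61.1, 66.03 and 61.96 in KO. All KO libraries lay above all WT libraries. The log2 fold change was 0.31 (SE 0.11, 95% interval 0.05 to 0.57) with an unadjusted p of 0.0248 and an adjusted p of 0.906 in edgeR. It was 0.23 to 0.36 with each library left out in turn, and the unadjusted p was not under 0.05 in every alternative. Uqcr11, a small subunit, went the other way, with 29.2, 28.3 and 29.6 CPM in WT and 23.9, 24.8 and 25.7 in KO, again without overlap and with a log2 fold change of -0.23 (SE 0.13). Uqcrc1, a core protein, was 104, 120.2 and 107 against 97.9, 99.8 and 99.98 (-0.16, SE 0.10), also without overlap, and -0.089 without WT replicate 2. Over the 8 members, 2 lay above 0 and 6 below, with a median of -0.08.

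In complex I, Ndufc1, a small accessory subunit of the membrane arm at chr3:51404677-51408988, had 21.1, 25.3 and 19.8 CPM in WT and 15.3, 15.96 and 18.5 in KO. The genotypes did not overlap. Its log2 fold change was -0.41 (SE 0.17, 95% interval -0.80 to -0.02) with an unadjusted p of 0.0411 and an adjusted p of 0.906 in edgeR. The value was -0.51 to -0.30 with each library left out in turn, and the unadjusted p was not under 0.05 in every alternative. Ndufb3, another membrane arm subunit, was 7.36, 10.5 and 10.9 against 7.27, 6.51 and 7.92 (-0.40, SE 0.24), and WT replicate 1 lay among the KO libraries. The core subunits Ndufs1 (0.04, SE 0.10), which carries iron-sulphur clusters, and Ndufv1 (0.07, SE 0.10, and 0.03 to 0.11 with each library left out in turn), which binds NADH, differed by less than the spread between libraries. The median of the 38 was -0.04, with 18 above 0 and 20 below.

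Complexes II and V held no member with an unadjusted p under 0.05. Sdha was 161, 168 and 152 CPM in WT and 148, 158 and 141 in KO (-0.11, SE 0.09), and Sdhb 49.9, 47.7 and 48.5 against 47.8, 45.4 and 48.2 (-0.05, SE 0.10). All 4 complex II members lay below 0, with a median of -0.08 and every interval holding 0. Of the 17 members of complex V, 13 lay below 0 and 4 above, with a median of -0.05. Atp5b was 437, 445 and 409 against 399.6, 370.2 and 384, without overlap, a log2 fold change of -0.16 (SE 0.08) with an interval of -0.35 to 0.03. Atp5f1, a subunit of the peripheral stalk, was 88.6, 97.3 and 91.5 against 83.2, 75.8 and 84.3 (-0.19, SE 0.10), also without overlap. Atp5e, the epsilon subunit of the central stalk, lay the other way, with 23.01, 22.3 and 17.5 against 23.8, 23.7 and 29.4 (0.29, SE 0.17), without overlap. The Atp5e value was 0.18 without WT replicate 3, 0.17 without KO replicate 3 and 0.099 on log2(TPM + 1) in limma. On that scale Atp5b was -0.36 and Atp5f1 -0.34, both farther from 0 than in edgeR.

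Besides those described, Ndufa10 and Uqcrb were lower and Ndufa3 higher in KO without overlap, named here after their values were seen, with log2 fold changes of -0.20, -0.10 and 0.17. The count of 12 without overlap is completed by Ndufb4.

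Ndufb4, a membrane arm subunit of complex I, had the largest positive log2 fold change of complex I, but an identical copy held more counts than the gene itself. It was 7.88, 9.73 and 7.60 CPM in WT and 11.4, 10.2 and 13.4 in KO, without overlap, a log2 fold change of 0.47 (SE 0.22). The processed pseudogene Ndufb4c at chr15:73809507-73809896 matches it over 390 bases without a mismatch and held 437 to 597 counts per library, where Ndufb4 held 198 to 418. Ndufb4c was 15.0, 17.0 and 22.9 CPM in WT and 20.4, 17.1 and 14.0 in KO. The sum of both was 22.9, 26.8 and 30.5 in WT and 31.8, 27.3 and 27.3 in KO, with overlapping genotypes. Fitted as a sum, an alternative chosen after seeing the data, the log2 fold change was 0.11 (95% interval -0.25 to 0.46).

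Reads shared with near-identical copies touch other members too. A pseudogene transcript with at least 95% identity over at least 150 bases was found for 22 members, 41 copies in all, and for 8 members the copies held over 10% of the member's own mean count. For Ndufs5, an accessory subunit of complex I, the copy held 159% of its count, and its log2 fold change went from 0.30 to 0.17 with the copy added, and was 0.17 without WT replicate 1 and 0.47 without WT replicate 2. The shares were 84.3% for Atp5g2, 52.8% for Atp5l, 42.5% for Ndufab1 and 10.5% for Cox7a2l, whose log2 fold change became 0.45 with an interval of 0.19 to 0.71. Ndufb4 and Ndufs5 were the 2 members that moved by over 0.1. For these members the level of the gene alone is uncertain.

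**Figure D4:**
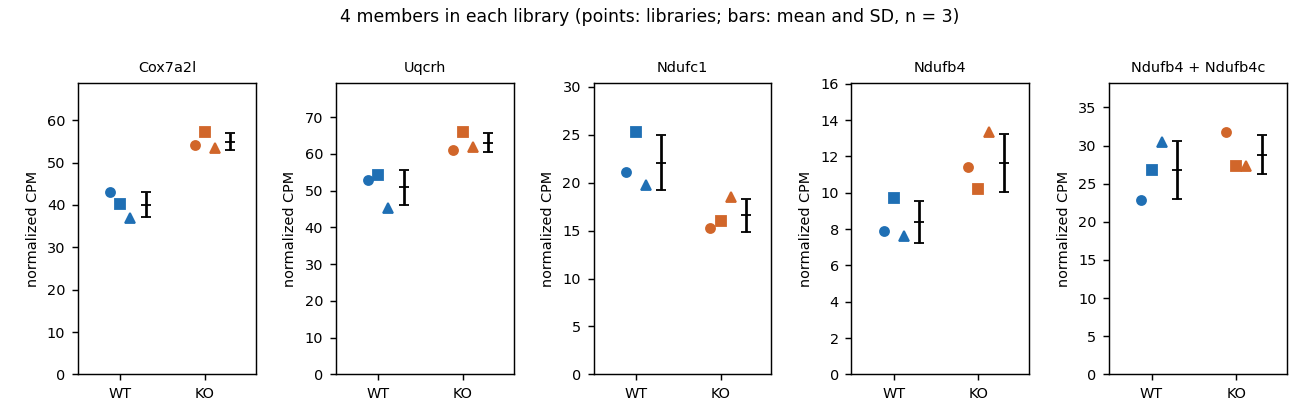
Normalized CPM of Cox7a2l, Uqcrh, Ndufc1 and Ndufb4 and of Ndufb4 with its identical copy Ndufb4c, 1 point per library, with the mean and SD of each genotype (n = 3) beside the points. The genotypes do not overlap in the first 4 panels, and they do when Ndufb4c is added to Ndufb4, where KO is 31.8, 27.3 and 27.3.

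Paralog pairs were compared within each library as the log2 ratio of their rescaled TPM, over 8 pairs, with a 2-sided exact permutation test that cannot give a p below 0.1 with 3 against 3 libraries. None reached it on rescaled TPM, and the adjusted p values were 0.914 or higher. Cox7a2l over Cox7a2 had the smallest p (exact permutation p = 0.2): Cox7a2l made up 49.7, 51.3 and 48.3% of the pair in WT and 50.3, 61.9 and 57.7% in KO, a mean difference of 0.40 in the log2 ratio. KO replicates 2 and 3 lay above the WT libraries and KO replicate 1 lay among them. With CPM in place of TPM the difference was also 0.40, with an exact permutation p of 0.1, the smallest the test can give, and no overlap.

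The 3 genes Atp5g1, Atp5g2 and Atp5g3 encode the same mature c subunit of the ATP synthase ring. Atp5g3 held 64.6, 61.9 and 64.2% of their summed level in WT and 61.1, 73.7 and 64.8% in KO. Atp5g1 held 13.8 to 25.5% and Atp5g2 12.5 to 24.1% over the 6 libraries. No ratio among the 3 reached an exact permutation p below 0.5. The Atp5g2 share rests on a gene with a near-identical copy, as given above.

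Among the paralogs with few counts, 3 varied widely between mice of the same genotype. Cox4i2, the form of Cox4 known from lung and low oxygen, had 32, 6 and 54 counts in WT and 53, 42 and 43 in KO. Cox7a1, the heart and muscle form, had 28, 5 and 21 against 48, 31 and 9. Ndufa4l2, known to be induced by hypoxia, had 148, 29 and 81 against 48, 51 and 120. All 3 were lowest in WT replicate 2, and their intervals were wide, from -1.14 to 2.26 for Cox4i2, -1.25 to 2.78 for Cox7a1 and -1.61 to 1.09 for Ndufa4l2. Cox6b2, known from testis, had 26 to 45 counts and an interval of -0.86 to 1.53. Leaving out each library in turn gave log2 fold changes of 0.07 to 1.38 for Cox4i2 and 0.16 to 0.54 for Cox6b2, the lowest without WT replicate 2 and KO replicate 2.

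As a share of the pair, Cox4i2 was 1.00, 0.190 and 1.69% of Cox4i2 and Cox4i1 in WT and 1.77, 1.13 and 1.23% in KO (exact permutation p = 0.4). Cox7a1 was 7.09, 1.36 and 8.08% of Cox7a1 and Cox7a2 in WT and 13.3, 11.1 and 3.03% in KO (exact permutation p = 0.5). Ndufa4l2 was 11.5, 1.98 and 13.3% of Ndufa4l2 and Ndufa4 in WT and 14.0, 3.47 and 13.3% in KO (exact permutation p = 0.6). Cox6b2 was 3.68 to 5.88% of its pair in the 6 libraries (exact permutation p = 0.7).

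Summed fibroblast, endothelial, skeletal muscle, adipocyte, erythroid and macrophage and lymphocyte markers were also lowest in WT replicate 2, and pericyte markers were lowest in KO replicate 2. The summed normalized CPM of 10 fibroblast and stromal markers was 7510, 2352 and 7861 in WT and 4363, 2663 and 6020 in KO. That of 7 pericyte and smooth muscle markers was 544, 315 and 448 against 309, 307 and 412, and that of 7 endothelial markers 675, 123 and 488 against 426, 188 and 690.1. For 15 skeletal muscle markers of 16 in the list the sums were 141, 28.4 and 130 against 44.1, 51.1 and 53.7. No marker of these 4 lists was at 0 in every library, and their part in the values of Cox4i2, Cox7a1 and Ndufa4l2 was not tested. Among the KO libraries the fibroblast, pericyte and endothelial sums were highest in replicate 3 and lowest in replicate 2, and the muscle sum was lowest in replicate 1. Ndufa4l2 had the order of the first 3 lists (1.92, 1.70 and 3.83 CPM), and Cox4i2 (2.12, 1.40 and 1.37) and Cox7a1 (1.92, 1.04 and 0.288) did not. An order of 3 libraries carries little information. Of the major forms, Cox7a2 was at 21.4, 19.5 and 19.99 CPM in WT and 25.4, 18.3 and 20.1 in KO.

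**Figure D5:**
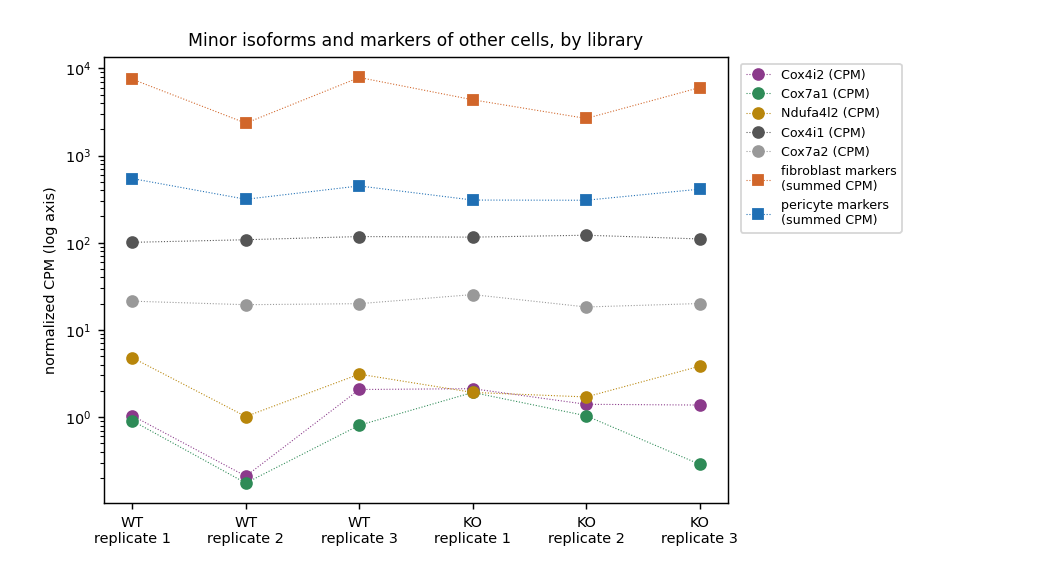
Normalized CPM (log axis) of Cox4i2, Cox7a1 and Ndufa4l2, of the major forms Cox4i1 and Cox7a2, and the summed CPM of fibroblast and pericyte markers in each of the 6 libraries. The 3 minor forms and the fibroblast sum have their lowest point in WT replicate 2, at 6, 5 and 29 counts and at 2352 CPM.

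Genes that build, feed or regulate the chain were read as lists, and none was called in either direction. Of 48 assembly factors, 23 were above 0 and 25 below, with a median log2 fold change of -0.02. The one with an unadjusted p under 0.05 was Sdhaf3, a factor for the iron-sulphur subunit of complex II, at 2.92, 1.75 and 1.996 CPM in WT and 4.32, 4.57 and 3.07 in KO. Of 20 nuclear regulators, 10 lay above 0 and 10 below. Ppargc1a (0.00, SE 0.34), a coactivator of mitochondrial biogenesis, Nrf1 (0.08, SE 0.13), Gabpa (-0.03, SE 0.09), Esrra (-0.04, SE 0.31) and Tfam (0.07, SE 0.13), which packages mitochondrial DNA, all had intervals that held 0. Gabpb1, a partner of Gabpa, was 36.4, 38.8 and 39.7 CPM in WT and 28.7, 31.5 and 28.6 in KO, without overlap, a log2 fold change of -0.37 (SE 0.12, adjusted p = 0.906 in edgeR).

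The subunits encoded in mitochondrial DNA had a median log2 fold change of -0.17 over 12 genes, 4 above 0 and 8 below, from -0.43 to 0.93. Their summed normalized CPM was 8501, 10522 and 9408 in WT and 8628, 8223 and 8737 in KO, with overlapping genotypes. mt-Nd2 was 605, 803 and 697 CPM in WT and 527, 511 and 559.9 in KO (-0.40, SE 0.11), and mt-Nd5 differed by -0.36 (SE 0.10), both complex I subunits and both without overlap. mt-Co2 is listed at 0 in every library. The mitochondrial genes encode subunits of complexes I, III, IV and V, and the median of the 81 nuclear members was -0.03.

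Of 14 mobile carriers and exchangers, 4 lay above 0 and 10 below, with a median of -0.08. Cyc1, the cytochrome c1 of complex III that the symbol rule leaves out, differed by -0.01 (SE 0.14), and Cycs, cytochrome c, by -0.30 (SE 0.16). Of 18 genes of the TCA cycle and pyruvate dehydrogenase, 2 lay above 0 and 16 below, with a median of -0.11. Sucla2, a succinyl-CoA ligase subunit, was 62.2, 65.4 and 61.8 CPM in WT and 54.7, 52.01 and 54.03 in KO, without overlap (-0.24, SE 0.10). Of 20 glycolysis and lactate genes, 6 lay above 0 and 14 below, with a median of -0.06. Pfkp, a phosphofructokinase, was 172, 171 and 193 against 117, 119 and 146 (-0.48, SE 0.12), and Hk2, a hexokinase, differed by -0.57 (SE 0.23). All of these had adjusted p values of 0.906 or higher in edgeR.

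Some marker lists had medians farther from 0 than the members, and no marker passed the test. All 8 basal epithelial markers lay above 0 (median 0.42), among them Trp63, Acta2, Myh11, Cnn1 and Oxtr at an unadjusted p under 0.05, and their summed normalized CPM was 4108 to 5277 in WT and 5608 to 6754 in KO. The 10 luminal markers, 7 above 0 and 3 below, had a median of 0.06, with sums of 4227 to 7034 and 4137 to 7287. All 8 proliferation markers lay below 0 (median -0.59), with 6 at an unadjusted p under 0.05, among them Mki67, Top2a and Mcm5, and sums of 1172 to 1686 in WT and 862 to 1119 in KO. The smallest adjusted p in these 3 lists was 0.849, for Cnn1, in edgeR. Their part in the small differences of the members was not tested.

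Of the blood cells that TER-119 and CD45 mark, 9 of 10 macrophage and lymphocyte markers were tested, 7 above 0 and 2 below (median 1.03), with Ptprc and Cd79a higher and Adgre1 lower at an unadjusted p under 0.05 and sums of 19.3 to 39.6 CPM in WT and 36.9 to 75.8 in KO. Of 6 erythroid markers 5 were tested and 1 was at 0 in every library, with 4 above 0 and 1 below (median 0.29) and sums of 7.35 to 21.5 and 12.5 to 32.9. Adipocyte markers, 8 of 12 tested, had sums of 87.5 to 490.3 and 138 to 378, with 1 above 0 and 7 below (median -0.20), Plin1 among the latter at an unadjusted p under 0.05. The fibroblast markers had 3 above 0 and 7 below (median -0.21), the pericyte markers all 7 below (median -0.47, Notch3 and Kcnj8 at an unadjusted p under 0.05), the endothelial markers 3 above and 4 below (median -0.10) and the muscle markers 3 above and 12 below (median -1.15, Myh4 and Tnni2 at an unadjusted p under 0.05).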

How the data were processed

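RNA of sorted mammary epithelial cells was sequenced as 40-nt paired-end reads from 1 library per mouse, 3 WT and 3 KO, from ribosome-depleted stranded total RNA. The authors estimated counts and TPM with Salmon 1.2.1 (version as in the submitters' processing notes) on mm10 and Ensembl release 100, using genomic sequence as decoy, and summed them per gene through tximport. The deposited estimated counts are whole numbers without normalization. The deposited log2 values are log2(TPM + 1), made by the authors, and were turned back into TPM. Because Salmon divides reads between similar transcripts, a count of a gene with a near-identical copy depends on that division. Protein-coding genes held 8.98 to 11.4% of the TPM.

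Symbols, gene types and positions came from GENCODE vM21 (GRCm38), which named 54166 of 54418 identifiers. KO was compared with WT by edgeR 4.0.16 (R 4.3.3; filterByExpr, TMM, quasi-likelihood test) over 21236 genes, with Benjamini-Hochberg adjustment over all of them and no covariate. Calls needed an adjusted p no larger than 0.05 together with a log2 fold change of 0.58 or more in size. SE is the absolute log2 fold change divided by the square root of F. Paralog ratios were tested by 2-sided exact permutation. Near-identical copies were found with blastn 2.17.0. Members and all 16 lists were chosen with earlier results of these data known. Members named are those with an unadjusted p under 0.05, the highest and lowest level and the largest and smallest log2 fold change of each complex (2 of each in complexes I and IV), paralog pairs and 9 core subunits. From the other lists, genes with an unadjusted p under 0.05 and 7 set genes were eligible, and not every one is named. Coa1 and Atp5if1 had no matching symbol. The test was tried on simulated data whose changed genes moved by more than any member. That trial does not show what the test finds at the sizes seen in the members. No 2 libraries agreed within sampling noise. Alternatives were DESeq2 1.42.0 with and without apeglm 1.24.0, other size factors and filters, limma 3.58.1 on log2 TPM, a replicate block, near-identical copies summed with their member (chosen after seeing the data) and leaving out each library.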

Additional observations from a re-analysis of the deposited data

How the results depend on the processing

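The count of members called was 0 under all 17 alternatives run for it, and 2 to 4 members had an unadjusted p under 0.05 with edgeR or DESeq2. On log2(TPM + 1) in limma 10 members did, all lower in KO, and on log2(TPM + 0.1) 9. The share of all genes that did so on those scales is not given here, so these counts cannot be set against it. The median member log2 fold change moved from -0.03 to -0.20 and -0.21. On those scales the median of all genes was -0.06 and -0.14, and the protein-coding share of the TPM was lower in KO by 0.16 on the log2 scale (means of 9.48 and 10.6%). All genes called numbered 45 with DESeq2 and apeglm, 48 with DESeq2, 40 without a filter on low counts and 1 on log2(TPM + 0.1), against 0. Leaving out each library gave a median of -0.06 to 0.01, above 0 only without WT replicate 2 and 0 members called each time. On log2(TPM + 1) the log2 fold change turned for Cox4i1 (-0.10), Cox6b2 (-0.070), Cox7a2 (-0.11), Ndufa4 (-0.17), Ndufa4l2 (0.069), Ndufs1 (-0.062) and Sdhc (0.072). With apeglm, which shrank nearly all values to near 0 and reported failed line searches, Cox5a was 1.86e-05. With CPM in place of TPM the Ndufa4l2 over Ndufa4 ratio differed by -0.14 and not 0.38. Without single libraries, ratios that turned were Atp5g1 over Atp5g2 (-0.54 to 0.23), Atp5g2 over Atp5g3 (-0.40 to 0.22), Cox6b2 over Cox6b1 (-0.071 to 0.28) and Ndufa4l2 over Ndufa4 (-0.55 to 1.09), and the other ranges were -0.48 to -0.04 for Atp5g1 over Atp5g3, 0.05 to 1.64 for Cox4i2 over Cox4i1, 0.04 to 1.62 for Cox7a1 over Cox7a2 and 0.25 to 0.59 for Cox7a2l over Cox7a2. Members that turned were Atp5g1 (-0.26 to 0.022), Atp5g2 (-0.41 to 0.14), Atp5g3 (-0.075 to 0.044), Atp5mpl (-0.10 to 0.13), Atp5s (-0.27 to 0.10), Cox6b1 (-0.069 to 0.059), Cox7a2 (-0.081 to 0.16), Ndufa4 (-0.060 to 0.17), Ndufa4l2 (-0.73 to 0.26), Ndufs1 (-0.0026 to 0.074), Ndufs4 (-0.11 to 0.00067), Sdhc (-0.18 to 0.061), Sdhd (-0.32 to 0.033) and Uqcrfs1 (-0.16 to 0.0018). Cox4i1 (0.021 to 0.15), Sdha (-0.16 to -0.070) and Sdhb (-0.081 to -0.028) moved by over 1.5 times without turning. Of 35 named members, 18 kept their direction in every alternative. The cause of these shifts was not tested. The deviations of same-numbered mice had correlations of -0.02, 0.17 and 0.02. Differently numbered mice were not compared in this way, so these values cannot decide whether the numbers pair the mice. The replicate block gave 0 members called, a median of -0.03 and 2 members with an unadjusted p under 0.05. There were 5 members with under 100 counts in a library, and the effect of depth on the calls was not tested.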
